A study of Gallus gallus with 3 samples.

Results

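TBX5-positive mesoderm of the chick forelimb field was compared with TBX5-negative mesoderm of the same library at Hamburger-Hamilton stage 14 (HH14), embryonic day 2.5. The members were chosen by their TBX5 count among cells of 7 annotated mesoderm classes with 5000 or more unique molecular identifiers (UMIs, each counting 1 captured transcript): 78 cells held 1 or more TBX5 UMIs and 329 held 0. These 407 cells came from 598 cells of the 7 classes, 1313 cells in the HH14 library and 3262 cells in the 3 libraries of the series. The tissue was wild-type, untreated chicken tissue, dissected lateral to the somites and pooled from male and female embryos. Each stage, HH10, HH14 and HH18, was 1 library made with droplet single-cell RNA sequencing, so no test between groups was possible. Because the TBX5 count chose the cells and every gene was then read from those same cells, all HH14 values are a description of these cells.

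The lateral plate mesoderm (LPM) splits into an outer somatic layer, which lines the body wall and gives rise to limb mesenchyme, and an inner splanchnic layer, which gives rise to the gut wall and part of the heart. TBX5 is a T-box transcription factor that marks the forelimb field, is required for forelimb bud initiation in mouse and chick, and acts upstream of FGF10, the mesenchymal signal that starts the exchange with the overlying ectoderm. Retinoic acid made in the mesoderm, WNT signals and 3' HOX genes are known to act before or beside TBX5. TBX5 is also a heart gene.

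Most TBX5-positive cells held very few TBX5 transcripts. The 78 cells held 127 TBX5 UMIs: 44 cells had 1, 26 had 2, 4 had 3, 1 had 4 and 3 had 5. A cell with 0 UMIs is therefore a cell in which TBX5 was not captured, which differs from a cell that lacks it. TBX5-positive cells had a median of 13474 UMIs and 3469 genes, and TBX5-negative cells 8946 UMIs and 2739 genes. The share of TBX5-positive cells was 34.3% in the 102 deepest cells and 9.80% in the 102 shallowest. Near the limit of 5000 UMIs, 5 of 49 cells with 5000 to 5999 UMIs were positive, and just outside it 2 of 52 cells with 4000 to 4999 UMIs were positive. Other per-cell measures were close: mitochondrial genes took a median of 2.24% of UMIs in TBX5-positive and 2.26% in TBX5-negative cells, and the authors' cell cycle labels put 41.0% and 39.5% of them in G2/M. Levels are given as UMIs of a gene per 1000000 UMIs of a group (CPM), and depth is given beside the shares of cells it can set.

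TBX5-positive cells were found in all 7 classes and were most frequent in the limb bud mesenchyme. They made up 14 of 20 limb bud mesenchyme cells (70.0%, exact Clopper-Pearson 95% interval 45.7 to 88.1%), 9 of 18 flank LPM cells (50.0%, 26.0 to 74.0%) and 24 of 69 extraembryonic LPM cells (34.8%, 23.7 to 47.2%). The somatopleure, the body wall part of the somatic layer, had 19 positive cells of 88 (21.6%, 13.5 to 31.6%), and the splanchnic LPM 7 of 155 (4.52%, 1.83 to 9.08%). The undifferentiated LPM clusters 7 and 1 had 4 of 41 and 1 of 16. With each cell thinned to 5000 UMIs, the shares were 35.0% in limb bud mesenchyme, 16.7% in flank LPM, 15.9% in extraembryonic LPM, 7.95% in somatopleure and 1.94% in splanchnic LPM, so the order of these 5 classes was the same at equal depth, while the intervals of limb bud, flank and extraembryonic cells overlapped. As TBX5 level, limb bud mesenchyme and flank LPM were close, at 98.9 CPM (67.2 to 140) and 99.6 CPM (55.7 to 164). These levels rest on 31 and 15 TBX5 UMIs, too few to show that they are equal. Extraembryonic LPM had 40.1 CPM, somatopleure 23.2 CPM and splanchnic LPM 5.48 CPM. Somitic and intermediate mesoderm, which should lack TBX5, had 0 positive cells of 56 and 0 of 52, with exact upper limits of 6.38% and 6.85% at median depths of 10833 and 10777 UMIs. The intervals of splanchnic LPM and both undifferentiated clusters overlapped those of somitic and intermediate mesoderm. Gut and ectoderm cluster 2, also outside the 7 classes, had 1 positive cell of 28 and 1 of 61.

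**Figure D1:**
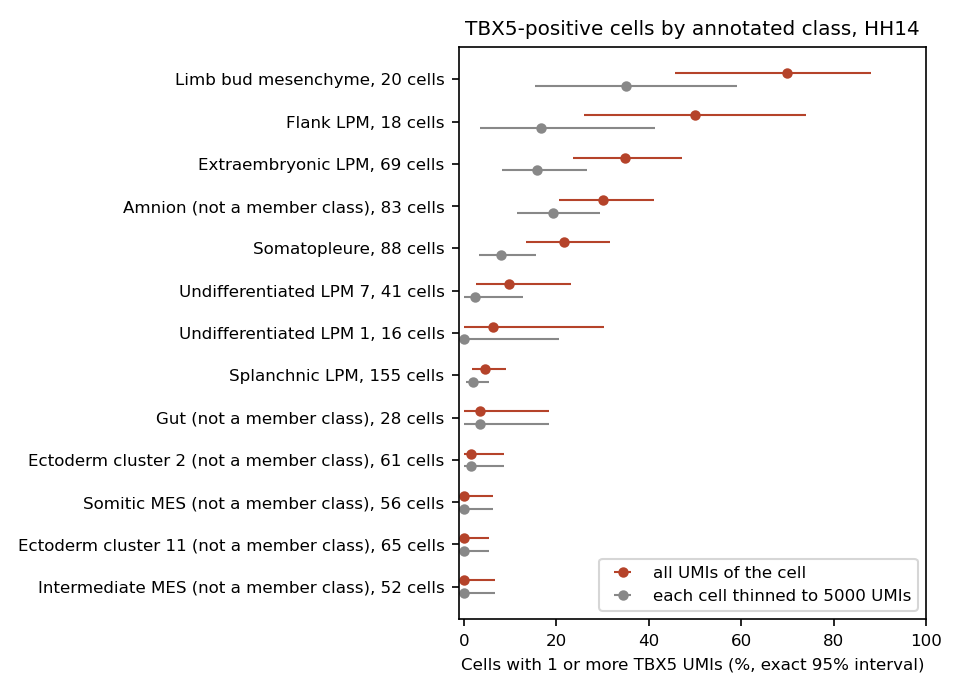
Share of cells with 1 or more TBX5 UMIs in each annotated class of the HH14 library (horizontal axis, % of cells; bars are exact 95% intervals), from all UMIs of a cell and after thinning each cell to 5000 UMIs. Limb bud mesenchyme is highest at 70.0% (35.0% thinned), splanchnic LPM is at 4.52%, and somitic and intermediate mesoderm are at 0.

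This distribution gave the 2 groups different class mixes. TBX5-positive cells were 30.8% extraembryonic LPM, 24.4% somatopleure, 17.9% limb bud mesenchyme, 11.5% flank LPM and 8.97% splanchnic LPM. TBX5-negative cells were 13.7% extraembryonic LPM, 21.0% somatopleure, 1.82% limb bud mesenchyme, 2.74% flank LPM and 45.0% splanchnic LPM. In the summed groups, a difference between classes and a difference between TBX5-positive and TBX5-negative cells cannot be told apart. The main results below are therefore given for the sums, and again compared within the 7 classes and combined into 1 ratio (a Mantel-Haenszel rate ratio, called the within-class fold here). The intervals are 95% and cover counting error only, not the spread between cells or embryos.

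Of 7866 genes that reached 30 UMIs over both groups and so count as measured here, 93 (1.18%) were 2-fold or more higher in TBX5-positive cells and 246 (3.13%) were 2-fold or more lower, and the median log2 fold over all of them was 0.04. Within classes 91 (1.16%) were higher and 232 (2.95%) were lower. The TBX5-negative sum was larger (3551113 against 1175069 UMIs), so a gene found only there reaches 30 UMIs at a lower CPM. The counts of the 2 directions are therefore not on equal terms, and what sets their difference was not tested. At a minimum of 100 UMIs they were 21 and 50 of 5088 genes. The 12 highest genes included FGF10 and 5 members of the somatic layer list (IRX5, PRRX1, IRX3, MSX2 and TWIST1), and the 12 lowest included 5 members of the splanchnic layer list (NKX3-2, NKX2-3, TCF21, BARX1 and HLX). Of the 12 highest genes, 11 kept their direction within classes, 3 of them at 2-fold or more (IRX5, FGF10 and SOX6). All of the 12 lowest kept theirs, 5 at 2-fold or more (NKX3-2, CYTL1, SST, LINGO1 and RDH10). NKX2-3, KRT14 and BARX1 had 0 UMIs in TBX5-positive cells, so their direction could not change within classes.

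**Figure D2:**
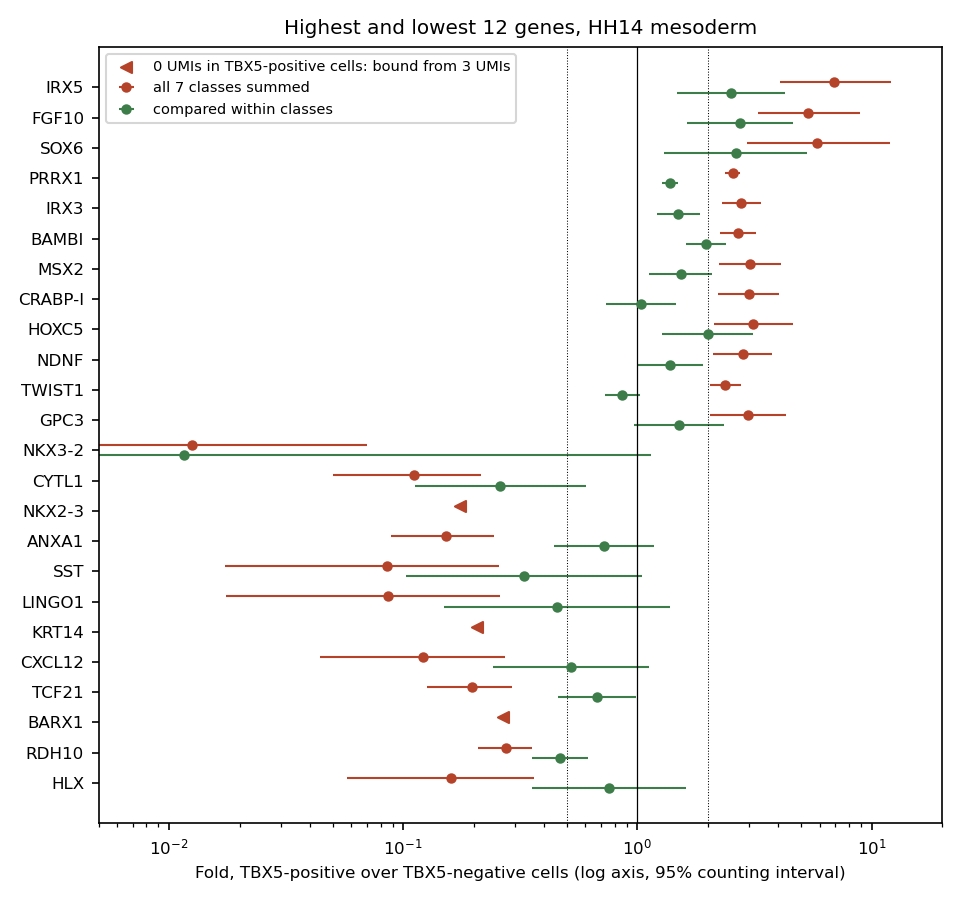
Fold of TBX5-positive over TBX5-negative cells (horizontal axis, log scale) for the 12 highest and 12 lowest genes at HH14, with all 7 classes summed and compared within classes; bars are 95% counting intervals, clipped at the left edge, and triangles are bounds for genes with 0 UMIs in TBX5-positive cells. FGF10 lies at 5.37 summed and 2.75 within classes, and TWIST1 crosses 1, from 2.38 summed to 0.86 within classes.

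FGF10, the limb bud ligand, was higher in TBX5-positive cells of the sums and within classes. It had 48 UMIs in TBX5-positive cells and 27 in TBX5-negative cells, or 40.8 and 7.60 CPM, a fold of 5.37 (interval 3.29 to 8.95). Within classes the fold was 2.75 (1.63 to 4.62): at the levels of TBX5-negative cells of the same classes, 17.1 UMIs would have been found in TBX5-positive cells. The excess was present in somatopleure (15 UMIs in 19 TBX5-positive cells and 10 UMIs in 69 TBX5-negative cells, fold 3.60, 1.51 to 8.96). In extraembryonic LPM the counts were 13 and 12 UMIs, and the fold of 1.74 had an interval that included 1 (0.732 to 4.17). In limb bud mesenchyme 15 and 1 UMIs were counted (57.3 and 19.3 CPM, fold 2.96, 0.456 to 125), and in flank LPM 4 and 0. The splanchnic LPM had 0 FGF10 UMIs in TBX5-positive and 2 in TBX5-negative cells. After thinning to 5000 UMIs, 11 of 78 TBX5-positive cells (14.1%) and 8 of 329 TBX5-negative cells (2.43%) had an FGF10 UMI, with 1 of 108 somitic and intermediate mesoderm cells (0.926%) as the background. Without thinning these shares were 41.0%, 6.69% and 1.85%, at median depths of 13474, 8946 and 10806.5 UMIs.

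Other genes of forelimb initiation differed in both directions. Of 26 genes on that list, 25 were present besides TBX5 and 22 were measured. Of these, 5 were 2-fold or more higher in TBX5-positive cells (FGF10, WNT2B, HOXC5, PRRX1 and TWIST1) and 1 was 2-fold or more lower (RDH10). The median log2 fold of the list was 0.35. Within classes 2 were higher (FGF10 and WNT2B), 1 was lower (RDH10), and the median was 0.06. Counts of this list and of those below stand beside the shares of all measured genes. These were 1.18% higher and 3.13% lower in the sums, and 1.16% and 2.95% within classes. WNT2B, a ligand placed upstream of FGF10 in the chick wing field, had 21 UMIs in TBX5-positive and 18 in TBX5-negative cells (fold 3.53, 1.79 to 7.02; within classes 2.57, 1.27 to 5.23). Of those, 13 and 4 UMIs came from extraembryonic LPM. With thinned cells compared within classes its fold was 1.36, and with S and G2/M cells left out its log2 fold was -0.56.

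MEIS1 (fold 1.03), MEIS2 (1.26) and SALL4 (1.00), transcription factors of early limb mesoderm, all lay below 1.5-fold. HOX genes of the forelimb level differed among themselves. HOXC5 was 3.13-fold higher (2.12 to 4.62; within classes 1.996, 1.27 to 3.13) with 57 UMIs in TBX5-positive and 55 in TBX5-negative cells, HOXC4 was 1.85-fold and HOXC6 1.81-fold higher, and HOXA5 1.38-fold higher, while HOXB5 was at 0.79-fold. Of 13 measured 3' HOX genes, HOXC5 was the 1 past 2-fold in the sums, and 0 were within classes. HOXB6, measured at 184 and 317 UMIs, was 1.75-fold higher (1.45 to 2.11; within classes 1.63, 1.30 to 2.06). It was higher in TBX5-positive cells of somatopleure, with 179 CPM in TBX5-positive and 78.7 CPM in TBX5-negative cells (fold 2.27, 1.52 to 3.38). In limb bud mesenchyme, with 6 TBX5-negative cells, it had 225 and 213 CPM. In splanchnic LPM HOXB6 had 0 UMIs in 7 TBX5-positive cells and 164 UMIs in 148 TBX5-negative cells.

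Transcription factors of the somatic layer were higher in the TBX5-positive sum. Of 11 measured members of that list, 7 were 2-fold or more higher and 0 were lower, and the median log2 fold was 1.35. Within classes 1 was higher (IRX5), 1 was lower (MSX1) and the median was 0.46. Over all measured genes 1.18% were higher and 3.13% lower in the sums, and 1.16% and 2.95% within classes. PRRX1, the homeobox gene of somatic and limb mesenchyme, had 1429 and 1693 UMIs, or 1216 CPM in TBX5-positive and 477 CPM in TBX5-negative cells (fold 2.55, 2.38 to 2.74). Within classes this was 1.38 (1.28 to 1.49). PRRX1 was close in both groups of somatopleure (832 and 739 CPM), flank LPM (1463 and 1296 CPM) and limb bud mesenchyme (1615 and 1392 CPM), each with an interval of the fold that included 1. It was higher in TBX5-positive cells of extraembryonic LPM (1398 and 904 CPM, fold 1.55, 1.38 to 1.74) and of splanchnic LPM (239 and 92.3 CPM, fold 2.59, 1.53 to 4.15). The 7 TBX5-positive splanchnic cells thus held more PRRX1 than the other splanchnic cells and less than any TBX5-positive cells of the limb bud, flank, extraembryonic or somatopleure classes.

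IRX5 and IRX3, Iroquois homeobox genes that lie on the same chromosome with 1 coding gene between them in the RefSeq annotation of GRCg7b, were both higher. IRX5 had 48 and 21 UMIs, 40.8 and 5.91 CPM (fold 6.91, 4.06 to 12.1; within classes 2.51, 1.48 to 4.25), and IRX3 had 211 and 230 UMIs (fold 2.77, 2.29 to 3.36; within classes 1.49, 1.21 to 1.85). IRX5 was higher in TBX5-positive cells of extraembryonic LPM (14 and 6 UMIs, fold 3.75, 1.35 to 11.9) and level in flank LPM (4 UMIs each). TBX3, which neighbours TBX5 in the same annotation, and TBX2 are T-box repressors expressed in limb and flank. TBX3 was 2.72-fold higher (1.91 to 3.87; within classes 1.82, 1.18 to 2.82) and TBX2 2.86-fold higher (1.94 to 4.23; within classes 1.55, 1.00 to 2.38). TWIST1, a mesenchymal basic helix-loop-helix factor, was 2.38-fold higher in the sums (2.04 to 2.77) but 0.86-fold within classes (0.727 to 1.03). Of its 310 UMIs in TBX5-positive cells 164 were in limb bud mesenchyme, and in extraembryonic LPM it was lower in TBX5-positive cells, at 143 CPM against 239 CPM in TBX5-negative cells (fold 0.60, 0.437 to 0.814).

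MSX2 and MSX1, homeobox genes that respond to BMP signals, differed in opposite directions. MSX2 had 90 UMIs in each group, or 76.6 CPM in TBX5-positive and 25.3 CPM in TBX5-negative cells (fold 3.02, 2.23 to 4.09; within classes 1.53, 1.12 to 2.09). MSX1 had 21 and 122 UMIs, or 17.9 and 34.4 CPM (fold 0.52, 0.311 to 0.831; within classes 0.48, 0.307 to 0.739). BAMBI, a membrane pseudoreceptor that dampens BMP and TGF-beta signalling and is itself a known BMP target, was higher as well. It had 249 UMIs in TBX5-positive and 280 in TBX5-negative cells, 212 and 78.8 CPM (fold 2.69, 2.26 to 3.20; within classes 1.96, 1.61 to 2.39).

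The BAMBI difference varied by class. Its level was highest in flank LPM, with 653 CPM in TBX5-positive and 459 CPM in TBX5-negative cells and an interval of the fold that included 1 (0.902 to 2.27). In extraembryonic LPM the levels were 270 and 127 CPM (fold 2.12, 1.58 to 2.85), and in splanchnic LPM 239 and 50.0 CPM (fold 4.78, 2.77 to 7.89). The 14 TBX5-positive limb bud cells held 49 UMIs and the 6 TBX5-negative limb bud cells 0. In somatopleure BAMBI was not higher, with 51.6 and 58.7 CPM (fold 0.88, 0.452 to 1.62). After thinning, 57.7% of TBX5-positive and 25.2% of TBX5-negative cells had a BAMBI UMI, with 10.2% in somitic and intermediate mesoderm cells. Among BMP ligands, BMP4 was 1.21-fold (0.949 to 1.54) and BMP5 1.63-fold higher (1.18 to 2.23). BMP7 had 15 and 24 UMIs (fold 1.89, 0.921 to 3.75), and 2.49-fold within classes.

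**Figure D3:**
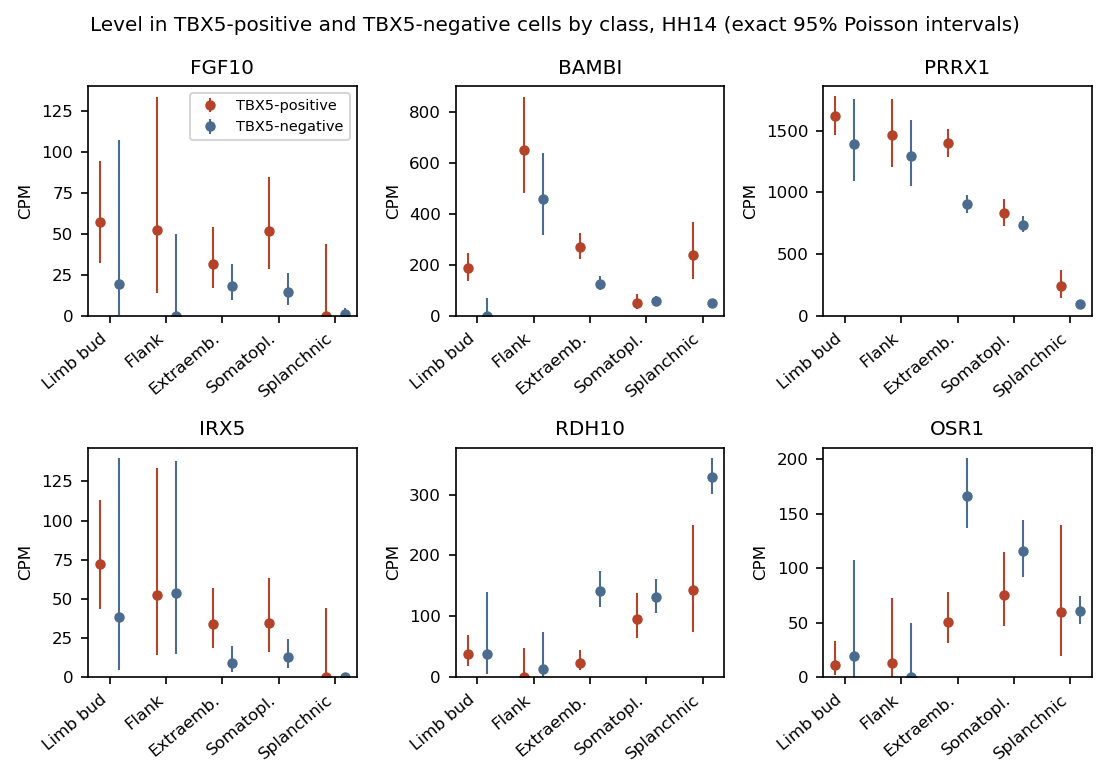
Levels in CPM of 6 genes in TBX5-positive and TBX5-negative cells of 5 classes at HH14; points are summed UMIs over the total of the cells and bars are exact 95% Poisson intervals. BAMBI is higher in TBX5-positive cells of extraembryonic and splanchnic LPM but level in somatopleure, and RDH10 and OSR1 are lower in TBX5-positive extraembryonic cells.

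The remaining genes among the 12 highest had smaller folds within classes. SOX6, a SOX family transcription factor, had 27 and 14 UMIs (fold 5.83, 2.95 to 12.03; within classes 2.63, 1.30 to 5.31), and 3 and 6 SOX6 UMIs were left after thinning, too few to compare. CRABP-I, a cellular retinoic acid binding protein, was 2.99-fold higher in the sums (2.22 to 4.03) and 1.04-fold within classes (0.733 to 1.47). GPC3, a cell surface heparan sulfate proteoglycan, was 2.97-fold higher (2.04 to 4.33; within classes 1.51, 0.969 to 2.35). NDNF, a secreted glycoprotein, was 2.82-fold higher (2.11 to 3.76; within classes 1.38, 1.01 to 1.90). For GPC3 and CRABP-I the within-class interval included 1.

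Genes of the splanchnic layer were lower in the TBX5-positive sum. Of 12 measured members of the splanchnic list, 7 were 2-fold or more lower in TBX5-positive cells and 0 were higher, and the median log2 fold was -2.13. Within classes 2 were lower (NKX3-2 and ISL1) and the median was -0.24. The share of all measured genes that was lower was 3.13% in the sums and 2.95% within classes. NKX3-2, a homeobox repressor of gut and axial mesoderm, had 1 UMI in TBX5-positive cells, in the limb bud class, and 242 in TBX5-negative cells, 235 of them in splanchnic LPM. The ratio of TBX5-negative to TBX5-positive levels was 80.1 (lower bound 14.2). At the levels of their own classes, 16.3 NKX3-2 UMIs would have been found in TBX5-positive cells, and the approximate interval of the within-class fold included 1 (0.000116 to 1.15). The approximation is poor with 1 UMI, so this interval is not a guide to the counting error of NKX3-2. NKX2-3 and BARX1, homeobox genes of gut and stomach mesenchyme, had 0 UMIs in TBX5-positive cells and 52 and 34 UMIs in TBX5-negative cells. Taking 3 UMIs over the group as the limit for a count of 0, they were at least 5.74-fold and 3.75-fold lower, but only 3.14 and 4.57 UMIs would have been found at the levels of their classes.

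TCF21, a basic helix-loop-helix factor of visceral mesoderm and coelomic epithelium, had 26 and 400 UMIs, 22.1 and 113 CPM (fold 0.20, 0.127 to 0.292; within classes 0.67, 0.458 to 0.988). Within splanchnic LPM it was level at 251 CPM in TBX5-positive and 220 CPM in TBX5-negative cells, while in somatopleure it had 10.3 and 44.4 CPM (fold 0.23, 0.0455 to 0.745). HLX (6 and 113 UMIs) and FOXF1 (6 and 107 UMIs), both regulators of gut mesenchyme, were 0.16-fold and 0.17-fold in the sums and 0.76-fold and 0.68-fold within classes. ISL1, a LIM homeobox gene of the heart and hindlimb fields, had 1 UMI in TBX5-positive and 46 in TBX5-negative cells, with 2.83 UMIs to be found at the levels of the classes. ANXA1, a phospholipid-binding protein, was 0.15-fold in the sums (18 and 358 UMIs) and 0.72-fold within classes (0.441 to 1.18), and in splanchnic LPM it had 155 and 212 CPM.

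Not all splanchnic or general LPM regulators followed. HAND1 had 277 CPM in TBX5-positive and 266 CPM in TBX5-negative cells, HAND2 390 and 380 CPM, GATA6 120 CPM in both and GATA5 196 and 245 CPM. Their within-class folds were 1.40 (HAND1), 1.19 (HAND2), 1.01 (GATA6) and 1.01 (GATA5). GATA4, with 10 and 45 UMIs, was 0.67-fold in the sums and 1.98-fold within classes. Within extraembryonic LPM HAND1 was higher in TBX5-positive cells, at 411 and 233 CPM (fold 1.76, 1.41 to 2.21). The hindlimb T-box gene TBX4 and the heart gene TBX20 had 0 UMIs in either group. PITX1, the hindlimb homeobox gene, had 2 UMIs in TBX5-positive and 30 in TBX5-negative cells (fold 0.20, 0.0233 to 0.794; within classes 0.63). Of 9 hindlimb identity genes 5 were measured, with 0 higher and 2 lower (PITX1 and ISL1), and within classes 1 was lower (ISL1).

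CYTL1, a small secreted protein, held its difference within classes: 9 and 244 UMIs, 7.66 and 68.7 CPM (fold 0.11, 0.0504 to 0.215; within classes 0.26, 0.112 to 0.603). It was lower in both splanchnic LPM (23.9 and 137 CPM, fold 0.17, 0.0210 to 0.637) and somatopleure (3.44 and 28.6 CPM, fold 0.12, 0.00290 to 0.751). SST (somatostatin) and LINGO1 had 3 UMIs each in TBX5-positive cells, and 106 and 105 in TBX5-negative cells. KRT14, a keratin, had 0 and 44 UMIs, and the chemokine CXCL12 6 and 149 UMIs, and within classes the intervals of SST, LINGO1 and CXCL12 all included 1. 

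RDH10, the enzyme that makes retinaldehyde from retinol, was lower in TBX5-positive cells with more counts than any other of the 12 lowest. It had 65 and 716 UMIs, or 55.3 CPM in TBX5-positive and 202 CPM in TBX5-negative cells (fold 0.27, 0.209 to 0.354). Within classes the fold was 0.47 (0.356 to 0.616), with 137 UMIs to be found at the levels of the classes. RDH10 was lower in TBX5-positive cells of extraembryonic LPM, where 24 TBX5-positive cells held 10 UMIs and 45 TBX5-negative cells 94 (24.3 and 142 CPM, fold 0.17, 0.0793 to 0.328). In splanchnic LPM the levels were 143 and 330 CPM (fold 0.43, 0.223 to 0.766), and in somatopleure 96.2 and 132 CPM, with an interval that included 1 (0.461 to 1.13). In limb bud mesenchyme RDH10 was at 38.2 and 38.7 CPM, but the TBX5-negative side was 6 cells with 51738 UMIs of all genes, too few to compare. After thinning, 20.5% of TBX5-positive and 45.9% of TBX5-negative cells had an RDH10 UMI.

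ALDH1A2, which turns retinaldehyde into retinoic acid, did not share that difference in the sums, with 498 and 388 CPM (fold 1.28, 1.16 to 1.41). Within classes it was 0.89-fold (0.798 to 0.986), and in extraembryonic LPM it was lower in TBX5-positive cells, at 603 and 760 CPM (fold 0.79, 0.679 to 0.926). Of 10 measured genes of retinoic acid synthesis, binding and breakdown, 1 was 2-fold or more higher (CRABP-I) and 1 lower (RDH10), and within classes RARG was higher and RDH10 lower.

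Extraembryonic LPM, the class with the most TBX5-positive cells, was also compared inside itself. Of 4672 measured genes 51 (1.09%) were 2-fold or more higher in its 24 TBX5-positive cells and 104 (2.23%) lower in them than in its 45 TBX5-negative cells. Higher were IRX5, BAMBI, WNT2B and EGFL7, a secreted protein best known from endothelium (107 and 33.3 CPM, fold 3.21, 1.88 to 5.63), with HOXC5 (36.5 and 10.6 CPM, fold 3.44, 1.32 to 9.98) and TBX3 (48.6 and 18.2 CPM, fold 2.68, 1.25 to 6.01). Of these, IRX5, WNT2B and HOXC5 held fewer than 30 UMIs over both groups of this class. They are therefore not among the measured genes counted here. Lower were RDH10 and OSR1, a zinc finger gene of intermediate and lateral mesoderm (51.0 and 166 CPM, fold 0.31, 0.183 to 0.492). GATA2 (3 and 30 UMIs, fold 0.16, 0.0314 to 0.516) and MSX1 (8 and 48 UMIs, fold 0.27, 0.109 to 0.571) were lower too. The 2 groups of this class were close in depth, with medians of 15373 and 13250 UMIs.

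Endothelial markers were near 0 in the TBX5-positive cells in which EGFL7 was higher. CDH5, TEK and CLDN5 had 0 UMIs in all 78 TBX5-positive cells and 1, 10 and 6 in TBX5-negative cells, and EGFL7 was the 1 measured gene of the 14 present on the endothelial list, at 91 and 118 UMIs. The list summed to 103 UMIs (87.7 CPM) in TBX5-positive and 204 UMIs (57.4 CPM) in TBX5-negative cells, of which EGFL7 held 91 and 118 UMIs. The higher level of the list in TBX5-positive cells was therefore that of EGFL7, and the other genes together were lower in them.

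Within somatopleure 61 of 3877 measured genes (1.57%) were 2-fold or more higher in the 19 TBX5-positive cells and 89 (2.3%) lower in them than in the 69 TBX5-negative cells. FGF10, HOXB6 and TBX2 (30.9 and 8.59 CPM, fold 3.60, 1.14 to 12.3) were higher, as was GLI3, the Hedgehog pathway transcription factor (44.7 and 15.7 CPM, fold 2.84, 1.17 to 6.995). FGFRL1, an FGF receptor without a kinase domain, was lower (6.87 and 28.6 CPM, fold 0.24, 0.0272 to 0.988), as were CYTL1 and TCF21. Of these, FGF10, TBX2, GLI3, FGFRL1 and CYTL1 held too few UMIs over both groups of this class to count as measured. They are therefore not among the 61 higher and 89 lower genes. PRRX1 and TWIST1 were level in somatopleure, TWIST1 at 189 and 178 CPM. The TBX5-positive somatopleure cells were deeper, with a median of 13694 UMIs against 8789 UMIs in TBX5-negative ones. After thinning, 35 of 2181 measured genes were 2-fold or more higher and 78 lower. In limb bud mesenchyme, where the TBX5-negative side was 6 cells, 186 of 1840 measured genes (10.1%) were higher and 26 (1.41%) lower, and in flank LPM, with 9 cells on each side, 19 of 810 (2.35%) were higher and 19 (2.35%) lower. The limb bud sums were uneven, at 261861 UMIs in TBX5-positive and 51738 UMIs in TBX5-negative cells.

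Signalling pathways are given beside the shares of all measured genes, 1.18% higher and 3.13% lower in the sums, and 1.16% and 2.95% within classes. Of 24 measured WNT pathway genes, 1 was 2-fold or more higher in TBX5-positive cells (WNT2B) and 5 lower (WNT5B, FZD4, RSPO1, SFRP1 and DKK3). Within classes WNT2B was higher and 2 were lower, RSPO1 and SFRP1, while DKK3, a secreted Dickkopf family protein, was 0.44-fold in the sums and 0.91-fold within classes. SFRP1, a secreted WNT antagonist, had 17.9 and 45.9 CPM (fold 0.39, 0.235 to 0.615; within classes 0.47, 0.273 to 0.812). Of 14 measured FGF pathway genes, FGF10 was higher and FGFRL1 lower (11.1 and 52.7 CPM, fold 0.21, 0.110 to 0.368; within classes 0.47, 0.266 to 0.825). Within classes SPRED2 (10 and 20 UMIs) was 2.05-fold and IL17RD (7 and 29 UMIs) 0.48-fold, both inhibitors of FGF signalling that lay within 2-fold in the sums. Of 10 measured Notch pathway genes, the target HES1 was higher (183 and 89.8 CPM, fold 2.04, 1.71 to 2.43; within classes 1.33, 1.07 to 1.66). The receptor NOTCH2 (12.8 and 31.3 CPM, fold 0.41, 0.221 to 0.703; within classes 0.38, 0.199 to 0.735) and the target HEYL (3 and 68 UMIs, fold 0.13, 0.0268 to 0.406; within classes 0.21, 0.0560 to 0.767) were lower. Of 21 measured BMP and TGF-beta genes, BAMBI was higher and TGFB2 lower (fold 0.46, 0.276 to 0.731; within classes 0.94), and within classes BMP7 was the 1 gene past 2-fold. Of 10 measured Hedgehog genes, HHIP was lower, with 0 and 32 UMIs, and 0 were higher. Within classes 0 Hedgehog genes lay past 2-fold.

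Genes of general cell state and matrix were counted in the same way. Of 23 measured S phase and 21 measured G2/M genes 0 lay past 2-fold in either direction, with median log2 folds of 0.21 and 0.21, and of 13 measured glycolysis genes 0 did, with a median of -0.08. Of 26 measured extracellular matrix genes 0 were higher and 3 lower (COL4A1, COL4A2 and NID1), of which NID1 was lower within classes, and of 12 measured immediate early and heat shock genes 1 was lower (ATF3) in the sums and 0 within classes.

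Levels were then ordered by TBX5 UMIs per cell, in 329 cells with 0, 44 with 1 and 34 with 2 or more. The 12 highest and 12 lowest genes were chosen on the difference between 0 and 1 or more TBX5 UMIs, so for them only the order of the upper pair of levels was free of that choice. Of the 12 highest genes, 8 rose over the 3 levels, while IRX3, MSX2, CRABP-I and HOXC5 did not. Of the 12 lowest, 6 fell, while CYTL1, NKX2-3, ANXA1, SST, KRT14 and BARX1 did not fall at each step. NKX2-3, KRT14 and BARX1 held 0 UMIs at both upper levels, so they could not fall between them. NKX3-2, HLX, SST, LINGO1 and CYTL1 held 5 or fewer UMIs at each upper level, and CXCL12 held 6 and 0, so their order rests on few counts. The numbers of ordered genes are therefore a description. IRX3, which did not rise at each step, was at 64.8, 183 and 176 CPM. BAMBI was at 78.8, 147 and 283 CPM, PRRX1 at 477, 1056 and 1390 CPM, and FGF10 at 7.60, 35.9 and 46.2 CPM, the intervals of the last pair of FGF10 levels overlapping (22.5 to 54.4 and 30.2 to 67.7 CPM). RDH10 was at 202, 75.1 and 33.8 CPM and OSR1 at 101, 70.2 and 26.7 CPM. HAND1 was flat at 266, 274 and 279 CPM in these sums over classes, while its within-class fold was 1.40. The class mix moved along the same order: splanchnic LPM made up 45.0, 11.4 and 5.88% of these cells and limb bud mesenchyme 1.82, 13.6 and 23.5%, and how much of each order this mix makes was not tested.

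**Figure D4:**
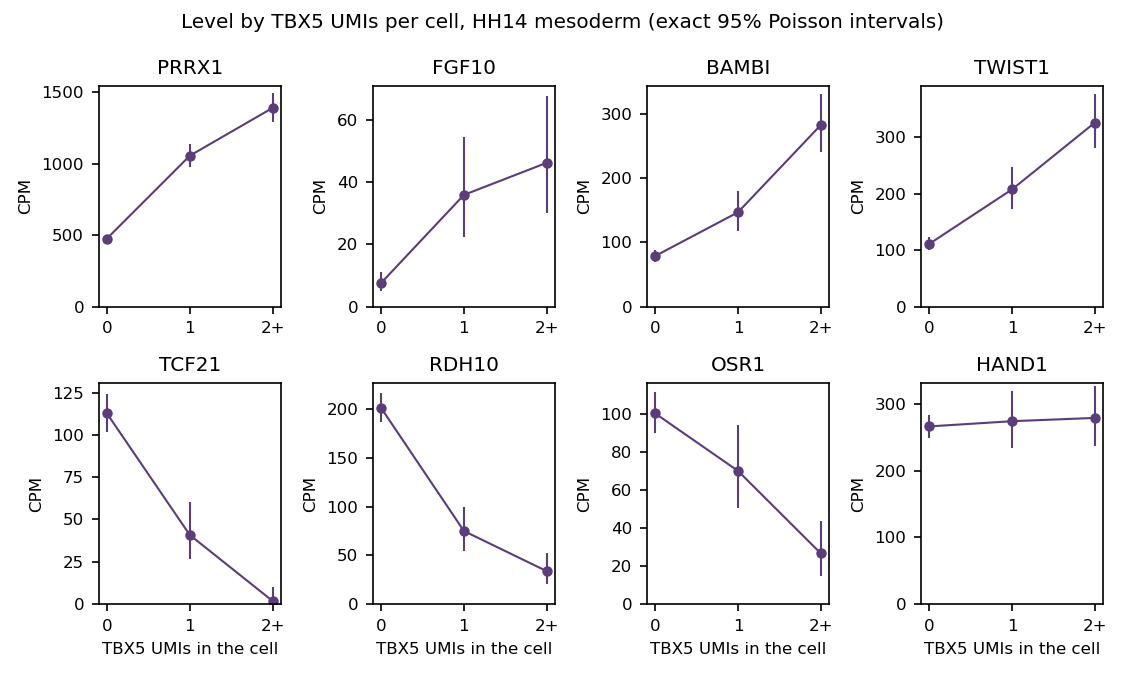
Levels in CPM of 8 genes in HH14 mesoderm cells with 0, 1 and 2 or more TBX5 UMIs (329, 44 and 34 cells); bars are exact 95% Poisson intervals. BAMBI is at 78.8, 147 and 283 CPM and RDH10 at 202, 75.1 and 33.8 CPM, while HAND1 stays between 266 and 279 CPM. Not all genes were ordered: 8 of the 12 highest rose and 6 of the 12 lowest fell over the 3 levels. Among the lowest, NKX2-3, KRT14 and BARX1 held 0 UMIs at both upper levels and could not fall between them.

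The same split in the HH18 library, which the choice of cells did not use, gave 146 TBX5-positive and 80 TBX5-negative cells of the same classes. These groups also differed in depth, with medians of 14170 and 8641.5 UMIs, and in class mix. Limb bud mesenchyme made up 75.3% of TBX5-positive and 52.5% of TBX5-negative cells, and all 12 splanchnic LPM cells were TBX5-negative. The authors' cell cycle labels put 50.7% (42.3 to 59.0%) of TBX5-positive and 35.0% (24.7 to 46.5%) of TBX5-negative HH18 cells in G2/M. The summed HH18 folds therefore carry class and depth differences, as at HH14, and this difference in phase as well. Of 7287 measured genes 277 (3.8%) were 2-fold or more higher and 88 (1.21%) lower. Within classes 342 (4.69%) were higher and 56 (0.768%) lower. Of the 12 genes highest at HH14, 11 kept their direction, HOXC5 being the exception, and 2 were 2-fold or more higher, BAMBI and NDNF. Within classes 8 of the 12 kept their direction and 0 were 2-fold or more higher, while FGF10, CRABP-I, HOXC5 and TWIST1 went the other way. Of the 12 lowest, 4 were measured at HH18 (CYTL1, ANXA1, TCF21 and RDH10), and all 4 were 2-fold or more lower in the sums and within classes. The HH10 library held 4 TBX5-positive cells and was not compared.

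Of the 12 highest genes, BAMBI had the most similar folds at the 2 stages. At HH18 it had 579 UMIs in TBX5-positive and 70 in TBX5-negative cells (fold 2.63, 2.05 to 3.42; within classes 1.95). It was higher in TBX5-positive flank LPM (591 and 207 CPM, fold 2.86, 1.48 to 6.32) and limb bud mesenchyme (167 and 96.2 CPM, fold 1.74, 1.25 to 2.47). FGF10 was close at HH18, with 115 and 30 UMIs (fold 1.22, 0.810 to 1.89), and within limb bud mesenchyme it had 56.1 and 51.6 CPM. Its within-class fold at HH18 lay below 1, so the HH14 direction of FGF10 was not kept there. PRRX1 was 1.72-fold higher (1.60 to 1.84; within classes 1.31), and TBX3 2.28-fold higher (1.60 to 3.35; within classes 1.84). BMP5 stood out more at HH18, with 59 UMIs in TBX5-positive and 3 in TBX5-negative cells (fold 6.26, 2.04 to 31.2). RDH10 (55 and 131 UMIs, fold 0.13, 0.0956 to 0.184; within classes 0.43) and OSR1 (19 and 30 UMIs, fold 0.20, 0.107 to 0.370; within classes 0.55) were lower again, but RDH10 was close within the limb bud mesenchyme (20.3 and 25.8 CPM). MSX1 was lower within TBX5-positive limb bud cells (113 and 190 CPM, fold 0.60, 0.460 to 0.779).

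**Figure D5:**
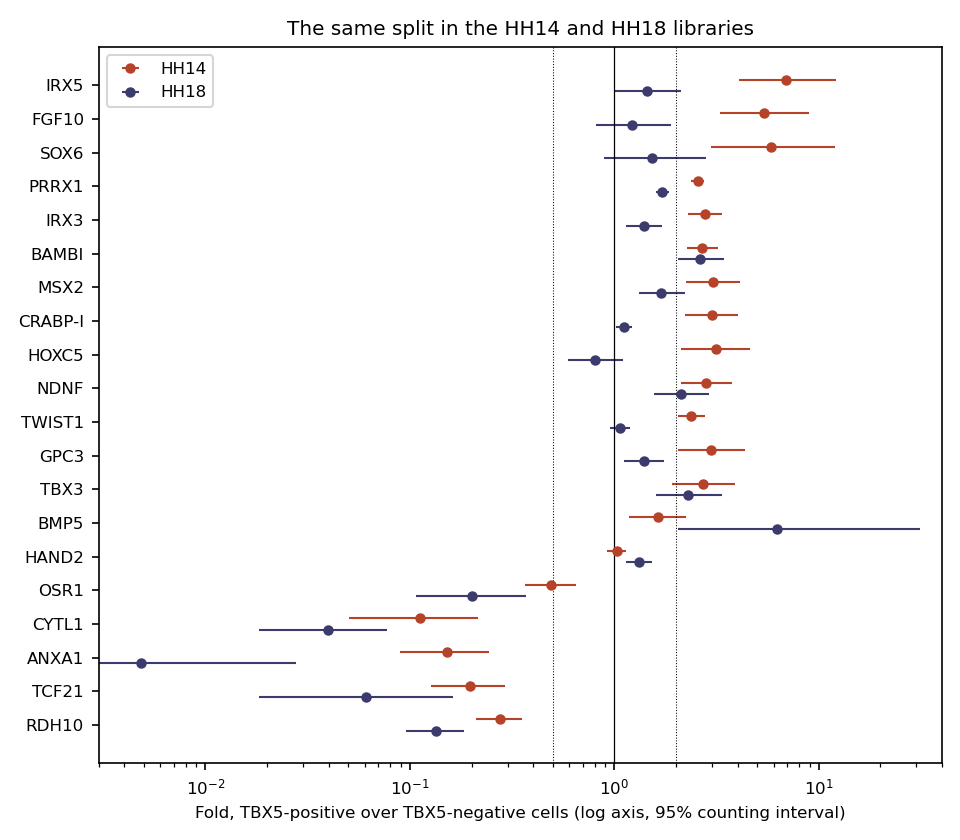
Fold of TBX5-positive over TBX5-negative mesoderm (horizontal axis, log scale; bars are 95% counting intervals) for 20 genes in the HH14 and HH18 libraries, 78 against 329 cells and 146 against 80 cells. BAMBI lies at 2.69 and 2.63, FGF10 at 5.37 and 1.22, and RDH10 at 0.27 and 0.13.

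Markers of other cell types were then summed. Of 13 ectoderm markers present, the keratin KRT7 had 724 CPM in TBX5-positive and 946 CPM in TBX5-negative cells. CDH1 had 5 and 13 UMIs, and EPCAM had 11 and 80 UMIs (within-class fold 0.32, 0.151 to 0.699). The list summed to 744 and 988 CPM, mostly from KRT7. Of 10 endoderm markers, SOX17, FOXA1 and FOXA2 had 0 UMIs in TBX5-positive cells, and the list summed to 86.8 and 197 CPM, mostly from APOA1 and TTR. The cardiac gene NKX2-5 had 0 UMIs in both groups, and 3 of 16 cardiac genes present were measured, with 0 past 2-fold in the sums. Within classes 1 of them was, TNNT2, the cardiac troponin T gene, with 10 and 25 UMIs (fold 1.21, 0.518 to 2.61; within classes 2.93, 1.56 to 5.50). Those UMIs lay in 4 of 78 TBX5-positive cells (5.13%) and 21 of 329 TBX5-negative cells (6.38%), so the within-class fold rests on few cells. After thinning the shares were 3.85% and 3.65%. Haemoglobin differed as well: 7 globin genes summed to 338 UMIs in TBX5-positive and 3859 in TBX5-negative cells, 288 and 1087 CPM, and 1 TBX5-negative extraembryonic cell alone held 2130 globin UMIs. Without the cells holding 10 or more globin UMIs, 76 TBX5-positive and 300 TBX5-negative cells were left. Of 7704 measured genes, 90 were then 2-fold or more higher and 225 lower.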

How the data were processed

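The labels' protocols give single-cell 3' chemistry V3.1 of 10x Genomics, and the submitters' processing notes name Cell Ranger 4.0.0 and the chicken genome GRCg6a. Raw UMI counts of 16748 genes per cell were deposited by the authors with no normalization. Their annotation of cells holds class, phase, UMIs per cell and, as the authors computed them, the percent of UMIs in mitochondrial and ribosomal protein genes. The lowest cell of the HH14 library held 2001 UMIs and the highest mitochondrial value was 9.97%, and the cell filters are not given in the sources used here. Libraries held 11855255 (HH10), 11267879 (HH14) and 6557527 UMIs (HH18). How many embryos were pooled is not given in the sources used here. 1 barcode occurs in both the HH10 and HH14 libraries, outside the cells described. No doublet caller was run; the deepest 5% of cells were left out as an alternative.

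UMIs were summed over the 1175069 UMIs of TBX5-positive and 3551113 UMIs of TBX5-negative cells and divided by these totals (CPM). Intervals are exact Poisson for levels, exact conditional binomial for folds of sums, Clopper-Pearson for shares and the Greenland-Robins approximation for within-class ratios. Genes under 30 UMIs over both groups were left out, and 2-fold was a description of size. A count of 0 was bounded with 3 UMIs. The genes named were the 12 highest and 12 lowest by the interval bound nearest to 1 (without TBX5, 7 globin, 13 mitochondrial, 72 ribosomal protein and 3 W-linked genes), the 4 or fewer measured list members farthest from a log2 fold of 0 in each list, and a fixed set. CDH1, CDH5, TEK and other members at low counts, and genes of single classes, were named after their values were seen. The 30 lists held 481 genes, 428 of them present. The members and lists were chosen with earlier results of these data known. RefSeq GRCg7b gave gene neighbours and matched 119 of 127 named genes. The computation was tested on simulated data. Python 3.11.15, numpy 2.4.6, scipy 1.17.1, pandas 2.3.3 and matplotlib 3.10.9 were used.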

Additional observations from a re-analysis of the deposited data

Results flagged for a closer look

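Amnion cells of the HH14 library, which lie outside the 7 mesoderm classes, also held TBX5: 25 of 83 cells (30.1%, exact 95% interval 20.5 to 41.2%), at a level of 38.8 CPM (27.3 to 53.5), above the 0 UMIs found in 56 somitic and 52 intermediate mesoderm cells. After thinning to 5000 UMIs the share was 19.3%. With amnion cells added to the groups, 103 TBX5-positive and 387 TBX5-negative cells were compared. Of 8259 measured genes, 77 were 2-fold or more higher and 212 lower. The source of TBX5 in amnion cells was not tested.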

How the results depend on the processing

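Of 308 values of the 12 highest genes over 26 alternatives, 302 kept their direction, and of 294 values of the 12 lowest, 294 did, with 10 or more UMIs required. These genes were picked as the extremes of the same cells, so their directions were not free to vary. Some alternatives could not turn a sign: a minimum of 10 or 100 UMIs changes which genes are counted and leaves each fold as it was. These counts are therefore a description and not a test of how stable the directions are. The number of measured genes differed between alternatives, so it is given beside the counts. In the main setting 93 genes were higher and 246 lower of 7866. With TBX5-negative classes weighted to the TBX5-positive mix, 196 were higher and 223 lower of 7866. With groups set from thinned TBX5 they were 183 and 547 of 5940. At a minimum of 10 UMIs they were 286 and 556 of 9664, and at 100 UMIs 21 and 50 of 5088. Cells with 2 or more TBX5 UMIs gave 209 and 392 of 7605. A fold of 1.5 gave 487 and 603, and a fold of 4 gave 3 and 49. Single classes gave 51 and 104 of 4672 (extraembryonic), 186 and 26 of 1840 (limb bud) and 19 and 19 of 810 (flank). Fewer were lower without splanchnic LPM (101 of 6917) or without splanchnic and extraembryonic LPM (105 of 5774). Thinning gave 35 higher and 78 lower of 2181 in somatopleure, against 61 and 89 of 3877. At HH18 it gave 134 higher and 51 lower of 4660, against 277 and 88 of 7287. Class weighting gave 457 higher and within-class comparison 56 lower there, each of 7287. Thinned shares of TBX5-positive cells were 35.0% (limb bud), 15.9% (extraembryonic), 19.3% (amnion), 7.95% (somatopleure), 2.44% (undifferentiated 7) and 7.86% (all 7 classes, against 19.2%).

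Signs of log2 folds turned for few genes, but sizes changed more often. Within classes 3 of the 12 highest and 5 of the 12 lowest genes stayed at 2-fold or more. Within classes TWIST1 was at -0.21 and TTR at 0.13; with class weights CRABP-I was at -0.063, TWIST1 at -0.022 and TTR at 0.26. Thinned and within classes, CRABP-I was at -0.39, NDNF at -0.053, PITX1 at 0.29, COL4A1 at 0.032, TTR at 0.11 and TGFB2 at 0.51. Groups from thinned TBX5 gave CRABP-I -0.38. WNT2B was at -0.56 without S and G2/M cells. At 5000 to 10000 UMIs per cell TBX3 was at -0.074 and PITX1 at 0.27. TTR was at 0.050 without splanchnic LPM and COL4A1 at 0.14 without splanchnic and extraembryonic LPM. The cause was not tested. The within-class, within-class thinned, amnion, globin and single-class alternatives were chosen after seeing the data. No paired analysis was possible because each stage has 1 library. With 1 to 5 TBX5 UMIs in a positive cell, depth limits which cells are called positive, and a TBX5-negative cell may hold TBX5 that was not captured.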

Other observations

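Some genes outside the naming rule differed within classes, and they are given here as values chosen after they were seen. ARPP21, a cyclic AMP-regulated phosphoprotein, had 49 UMIs in TBX5-positive and 73 in TBX5-negative cells, with a within-class fold of 2.57 (1.64 to 4.03). PKIG, an inhibitor of protein kinase A, had 108 and 261 UMIs (within-class fold 1.83, 1.42 to 2.36). CA2, a carbonic anhydrase, had 5 and 78 UMIs (within-class fold 0.0742, 0.0173 to 0.319), and the growth factor receptor EGFR 12 and 137 UMIs (within-class fold 0.37, 0.197 to 0.685). AVPR1A, a vasopressin receptor, had 6 and 42 UMIs (within-class fold 0.16, 0.0559 to 0.454).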
